A study of Mus musculus with 2 samples.

Results

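The 40 genes described here are mouse genes known for imprinting, or the partners that lie within or beside them, and they were looked up by symbol in the GENCODE vM21 annotation of GRCm38 (mm10). All 40 were found among its 55450 genes, 32 as protein-coding genes (of 21938) and 8 as long noncoding RNA genes (of 10155).

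An imprinted gene is expressed mainly from the copy inherited from 1 parent. The choice is written in the germ line as DNA methylation on a control region, most often a CpG-rich promoter methylated in the oocyte, less often an intergenic region methylated in sperm. The unmethylated copy binds factors such as CTCF or starts a long noncoding RNA that silences its neighbours, so that the 2 copies of such a region can differ in accessibility within a nucleus. Peak lists hold no parental origin, and nothing below separates the copies.

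Accessible chromatin was assayed by scFFPE-ATAC, in which a barcoded Tn5 transposase tags open DNA in nuclei released from formalin-fixed paraffin-embedded (FFPE) tissue and a T7 promoter amplifies the tagged sites. One library came from mouse FFPE spleen nuclei prepared without density gradient centrifugation, the step that clears debris, and the other from mouse FFPE spleen in a 50 µL reaction system. For nuclei prepared without the gradient, the study reported weaker enrichment at transcription starts, more duplicates and a smaller share of reads in peaks. It also reported that cell types could not be clearly separated in that condition. The spleens were from 8-week-old C57BL/6 J mice, male and female mice having been used, with no transgene or treatment named for either library. How many animals gave each library is not stated. The gradient belongs to the general nuclei protocol for mouse spleen, and nothing specific to the 50 µL library was found that says whether it was applied there. There was 1 library per condition, so no difference between them has a replicate check and no p-value is given.

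The list without gradient held 25343 peaks covering 8.81 Mb, and the 50 µL list held 89382 peaks covering 38.0 Mb. The lists hold no numbers of reads or cells, so the depth of these libraries is unknown from the files used here. A peak's fold enrichment is the ratio of reads at its summit to the local background, and its -log10 q is the strength of the call. Both move with depth, so they are read within a list, and no ratio between the libraries is given. Medians over all peaks were a fold enrichment of 5.24 and a -log10 q of 10.4 without gradient, against 3.29 and 13.1 in the 50 µL library. Promoters of 5 of 8 spleen markers (Ptprc, Cd79b, Ms4a1, Cd3d and Spic) had a peak without gradient, against 8 of 8 in the 50 µL library. Of 5 genes of other tissues, Ckm had a promoter peak in both lists and Gfap in the 50 µL list, while Alb, Myh6 and Umod had none.

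The sequences under 7 of the peaks at control regions are given first, because these regions carry the parental mark. They are the plus strand of GRCm38 as RefSeq holds it, in lower case. Capitals mark matches, on either strand, to TGCCGC (the sequence bound by ZFP57, which keeps imprints methylated), GCCATNTT (YY1), GGNGGCAG (an end of the CTCF site) or the CTCF consensus. GGNGGCAG can overlap a TGCCGC match or a CTCF consensus match. Stretches in annotated UTRs were left out. The H19, Peg3, Mest, Peg10, Peg13 and Kcnq1ot1 sequences lie under peaks of the 50 µL list, and the Inpp5f sequence under a peak of the list without gradient.
H19 upstream, chr7:142580662-142580911: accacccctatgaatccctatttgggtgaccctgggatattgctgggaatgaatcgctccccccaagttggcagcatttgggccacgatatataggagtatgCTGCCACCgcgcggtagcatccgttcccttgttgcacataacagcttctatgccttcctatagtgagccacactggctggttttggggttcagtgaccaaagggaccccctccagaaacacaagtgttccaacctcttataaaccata
Peg3 intron, chr7:6729571-6729795: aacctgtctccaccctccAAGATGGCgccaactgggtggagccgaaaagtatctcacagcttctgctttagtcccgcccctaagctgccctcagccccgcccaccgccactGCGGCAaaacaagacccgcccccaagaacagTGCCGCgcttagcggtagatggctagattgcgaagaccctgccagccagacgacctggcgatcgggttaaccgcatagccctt
Mest promoter, chr6:30737918-30738049: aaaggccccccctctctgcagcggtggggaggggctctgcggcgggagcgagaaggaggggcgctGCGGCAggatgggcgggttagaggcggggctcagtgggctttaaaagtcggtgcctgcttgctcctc
Peg10 and Sgce promoter, chr6:4747208-4747305: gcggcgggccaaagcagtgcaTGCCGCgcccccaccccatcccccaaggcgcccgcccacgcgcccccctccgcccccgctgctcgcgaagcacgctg
Inpp5f internal promoter, chr7:128688392-128688488: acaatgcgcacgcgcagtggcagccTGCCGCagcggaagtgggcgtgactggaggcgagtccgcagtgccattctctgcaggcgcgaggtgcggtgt
Peg13 promoter, chr15:72810314-72810563: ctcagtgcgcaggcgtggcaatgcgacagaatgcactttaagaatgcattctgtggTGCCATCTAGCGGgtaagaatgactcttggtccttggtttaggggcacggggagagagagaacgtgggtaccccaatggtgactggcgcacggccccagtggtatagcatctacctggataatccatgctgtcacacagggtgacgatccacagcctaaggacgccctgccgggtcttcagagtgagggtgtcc
Kcnq1ot1 promoter, chr7:143296669-143296918: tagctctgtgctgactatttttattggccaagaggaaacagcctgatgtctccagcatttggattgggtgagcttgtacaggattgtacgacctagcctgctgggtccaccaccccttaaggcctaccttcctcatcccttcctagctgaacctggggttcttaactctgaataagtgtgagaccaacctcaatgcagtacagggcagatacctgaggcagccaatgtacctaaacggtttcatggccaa
In the H19 sequence the GGNGGCAG match lay 20 bp from the summit of the peak, and in the Peg13 sequence the CTCF consensus match lay 63 bp from it. The Peg3 sequence held TGCCGC matches 13 and 18 bp from the summit and a GCCATNTT match 105 bp from it. The Mest, Peg10 and Inpp5f sequences each held 1 TGCCGC match, 58, 52 and 79 bp from their summits. The whole peaks, with stretches not printed here, held 4 TGCCGC matches at Mest, 1 at Peg10 and 2 at Inpp5f. The whole Peg13 peak held 3 TGCCGC and 2 CTCF consensus matches. The Kcnq1ot1 sequence held no match and 2 CpG. These are matches of letters and say nothing of binding.

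Promoter peaks, meaning a peak that reaches within 1 kb of any annotated transcription start of the gene, were found at 9 of the 40 genes without gradient (22.5%, exact 95% interval 10.8 to 38.5%, counting error only). In the 50 µL library they were found at 19 of 40 (47.5%, 31.5 to 63.9%). Of the protein-coding members, 7 of 32 had one without gradient, where 43.7% of all protein-coding genes did, and 15 of 32 had one in the 50 µL library, where 56.6% of all did. Without gradient the protein-coding member share was 21.9% (exact 95% interval 9.28 to 40.0%), and the background lay above that interval. In the 50 µL library it was 46.9% (29.1 to 65.3%), lower than the background, which lay inside the interval. These intervals treat the members as independent, though some share a locus or, in the 50 µL list, a promoter peak. Of the noncoding members, 2 of 8 without gradient and 4 of 8 in the 50 µL library had a promoter peak, beside 14.7% and 26.3% of all long noncoding RNA genes, above the background in both lists but resting on 8 genes. When the 50 µL list was reduced to its 25343 most significant peaks, 11 of 32 protein-coding members kept a promoter peak (34.4%, 18.6 to 53.2%). The share of all protein-coding genes was 45.2%, inside that interval.

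With wider windows, which still include the starts, the shares of protein-coding members were near the background. With the gene body added, 15 of 32 protein-coding members had a peak without gradient (46.9%) and 20 of 32 in the 50 µL library (62.5%), where 51.3% and 65.3% of all protein-coding genes did. Within 10 kb of the gene, 20 of 32 without gradient (62.5%) and 24 of 32 in the 50 µL library (75.0%) had a peak, beside 61.2% and 73.0% of all. For noncoding members the counts within 10 kb were 4 of 8 without gradient (15.7 to 84.3%) and 7 of 8 in the 50 µL library (47.3 to 99.7%). These were above the 35.4% and 55.0% of all long noncoding RNA genes, but both intervals hold those values. The noncoding members ran from 2.6 kb (H19) to 118.8 kb (Airn), and their lengths were not compared with those of all long noncoding RNA genes. Protein-coding members had a median length of 42.2 kb and 5 annotated starts, against 17.4 kb and 3 starts over all protein-coding genes.

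**Figure D1:**
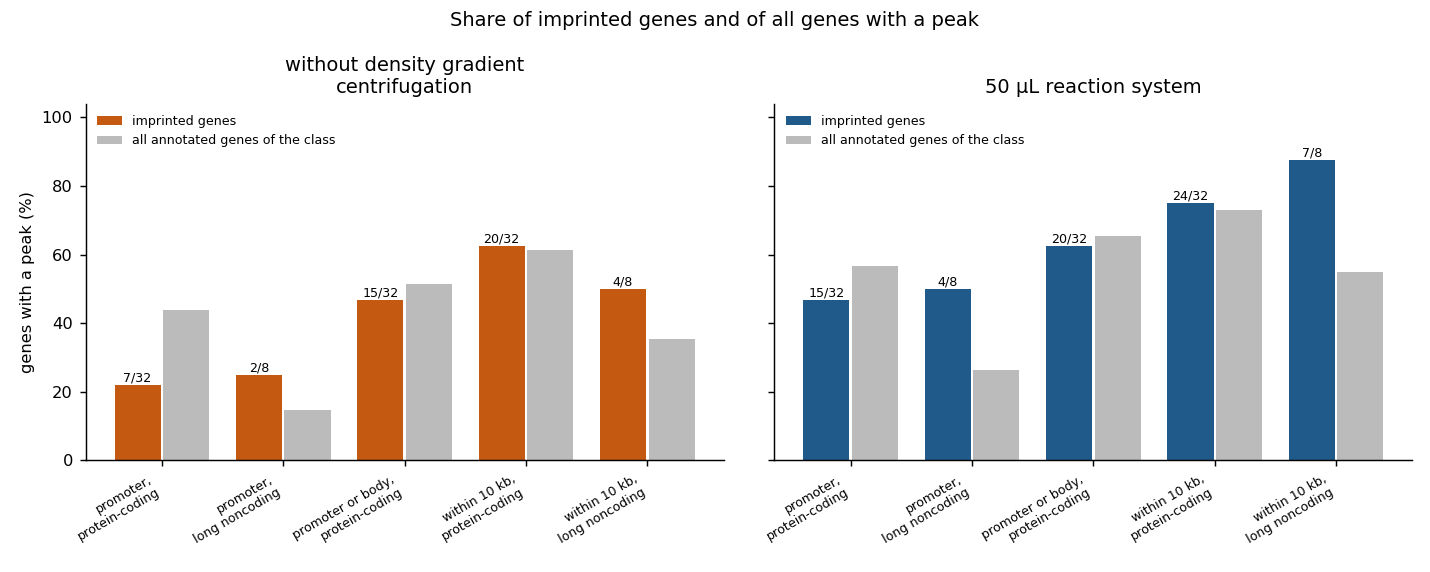
Percentage of imprinted genes (coloured bars, with counts) and of all annotated genes of the same class (grey bars) with a peak at a promoter, at a promoter or in the gene body, or within 10 kb. The left panel is the library without density gradient centrifugation and the right panel the 50 µL reaction system; protein-coding members sit below the grey bars at promoters (7 of 32 and 15 of 32) and near them within 10 kb (20 of 32 and 24 of 32).

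The 9 genes with a promoter peak without gradient (Commd1, Gnas, H13, Igf2r, Impact, Inpp5f, Kcnq1ot1, Peg13 and Ube3a) all had an overlapping promoter peak in the 50 µL list. A further 10 genes (Cdkn1c, Ddc, Meg3, Mest, Nespas, Peg10, Peg3, Sgce, Usp29 and Zrsr1) had a promoter peak only in the 50 µL list, and no gene had one only without gradient. Over all peaks, 95.3% of those without gradient overlapped a 50 µL peak, so sharing of this kind is the rule for these lists. In the other direction, 26.4% of 50 µL peaks overlapped a peak without gradient, so peaks found only in the 50 µL list are common too. Over all protein-coding genes, 9580 had a promoter peak without gradient and 12407 in the 50 µL library. The remaining 21 genes had a promoter peak in neither list. Member promoter peaks numbered 12 without gradient, with fold enrichments of 3.51 to 7.36 (median 6.13, against 5.40 over all promoter peaks). They numbered 31 in the 50 µL library, with fold enrichments of 1.77 to 7.54 (median 3.46, against 3.60 over all promoter peaks).

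**Figure D2:**
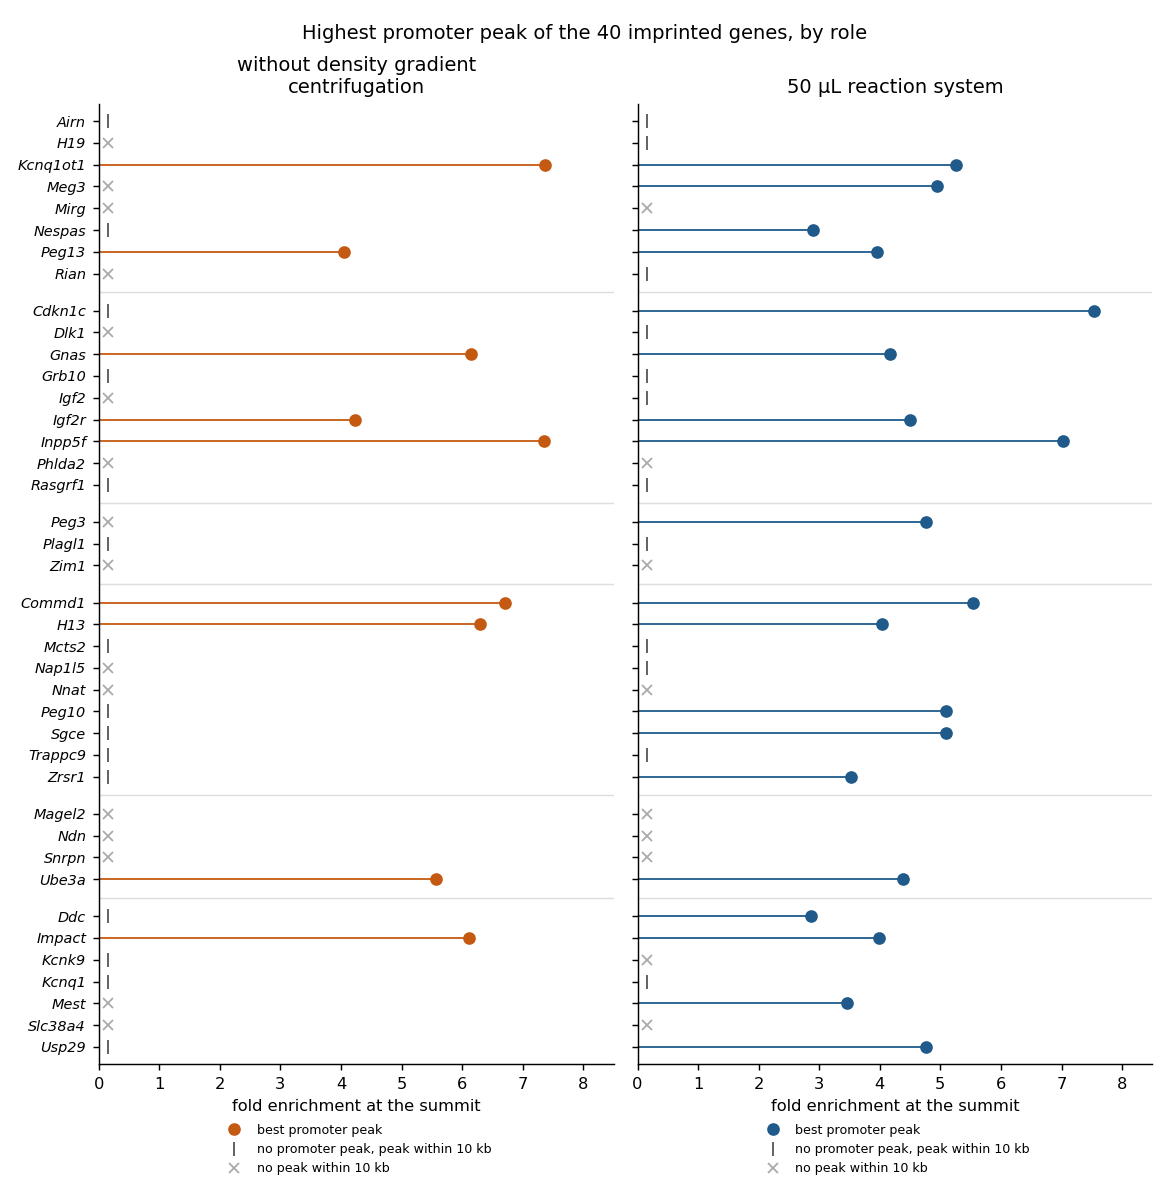
Fold enrichment at the summit of the highest promoter peak of each of the 40 genes, grouped from top to bottom as noncoding RNAs, growth and signalling genes, zinc finger factors, retrogenes with their hosts, the Snrpn to Ube3a region, and enzymes, channels and transporters. Circles mark a promoter peak (9 genes without density gradient centrifugation, left; 19 in the 50 µL reaction system, right), bars a peak only within 10 kb, and crosses no peak within 10 kb (16 genes left, 9 right).

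Of the noncoding RNAs, Kcnq1ot1, the paternally expressed antisense RNA that silences the Kcnq1 domain, had the highest promoter peak without gradient. The peak at chr7:143296448-143296948 had a fold enrichment of 7.36 and a -log10 q of 19.5 without gradient, and the overlapping peak at chr7:143296183-143297014 had 5.26 and 52.4 in the 50 µL library. Their summits lay at -239 and -245 bp from the start used for the control window, negative being upstream. Peg13, an RNA made from an intron of Trappc9, had 1 promoter peak without gradient, at chr15:72809167-72809366 (fold enrichment 4.04, -log10 q 6.34). In the 50 µL library it had 3, at chr15:72809167-72809469 (3.46), chr15:72809918-72810611 (3.39) and chr15:72810731-72811220 (3.95), of which the middle one covered its start. Meg3, the maternally expressed RNA of the Dlk1 domain, had 1 peak in the 50 µL library, at chr12:109543032-109543268 in an exon (fold enrichment 4.94, -log10 q 20.5). It reached only an internal Meg3 start, 1267 bp from the start of the gene, with its summit 903 bp past that start. Nespas, antisense in the Gnas locus, had 1 peak in the 50 µL library, at chr2:174294515-174294714 (fold enrichment 2.89, -log10 q 5.84).

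The other 4 noncoding RNAs had no promoter peak. Airn, the RNA that silences Igf2r, had no peak at any of its 6 starts, although its body held 4 peaks without gradient and 9 in the 50 µL library. The strongest of these was at chr17:12810460-12810928, with a fold enrichment of 10.6 in the 50 µL library, against 5.85 for the overlapping peak without gradient. H19 and Rian had peaks only in the 50 µL library, in the upstream flank of H19 and in an intron of Rian (fold enrichment 3.66), and Mirg, which hosts microRNAs, had none within 10 kb in either list.

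Among growth and signalling genes, Inpp5f, an inositol phosphatase gene, had peaks at its main promoter at chr7:128610949-128611399 without gradient (fold enrichment 7.35, -log10 q 18.1) and at chr7:128610791-128611531 in the 50 µL library (7.03 and 85.7). Igf2r, the receptor that clears the growth factor IGF2, had at its start the peak chr17:12769769-12770134 without gradient, with a fold enrichment of 4.23 and a -log10 q of 5.98. The overlapping 50 µL peak chr17:12769636-12770247 had 4.49 and 25.5, and a second one at chr17:12768750-12768979 had 2.78. This stretch also lies in an Airn intron. Cdkn1c, which encodes the cell cycle inhibitor p57, had a promoter peak in 1 list only. Its peak at chr7:143460915-143461483 had the highest fold enrichment of all member promoter peaks in the 50 µL library, 7.54 with a -log10 q of 61.8. Without gradient the nearest peak was 5.43 kb from the gene. Igf2 itself, Dlk1 (a transmembrane ligand related to Notch ligands), Grb10 (an adaptor that restrains insulin and IGF signalling), Rasgrf1 (an activator of Ras) and Phlda2 (a brake on placental growth) had no promoter peak in either library. The nearest peak to Igf2 in the 50 µL library was 5.53 kb away, at chr7:142672350-142672725 with a fold enrichment of 6.04, and without gradient it was 117.1 kb away. Rasgrf1 held 1 intronic peak without gradient and 9 peaks in its body in the 50 µL library. Grb10 held 1 intronic peak without gradient with a fold enrichment of 8.74, and 4 in the 50 µL library, of which the overlapping peak had 7.58.

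Gnas, which encodes the stimulatory G protein alpha subunit, has several promoters with different imprints. From 5' to 3' these are those of Nesp, Gnasxl, exon 1A and the main Gnas transcript. No peak in either library reached within 1 kb of the starts of Nesp or Gnasxl. Without gradient, 3 peaks lay in the gene, and its only promoter peak was at chr2:174344191-174344568 (fold enrichment 6.14), at a start near the 3' end of the gene. The 50 µL library held 11 peaks in the gene. It had a peak at the exon 1A starts (chr2:174327433-174327852, fold enrichment 2.61) and 3 at the main starts with fold enrichments of 2.26, 1.91 and 1.77. These were the lowest promoter peaks of any member, and the 50 µL peak at the 3' start stood at 4.17.

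**Figure D3:**
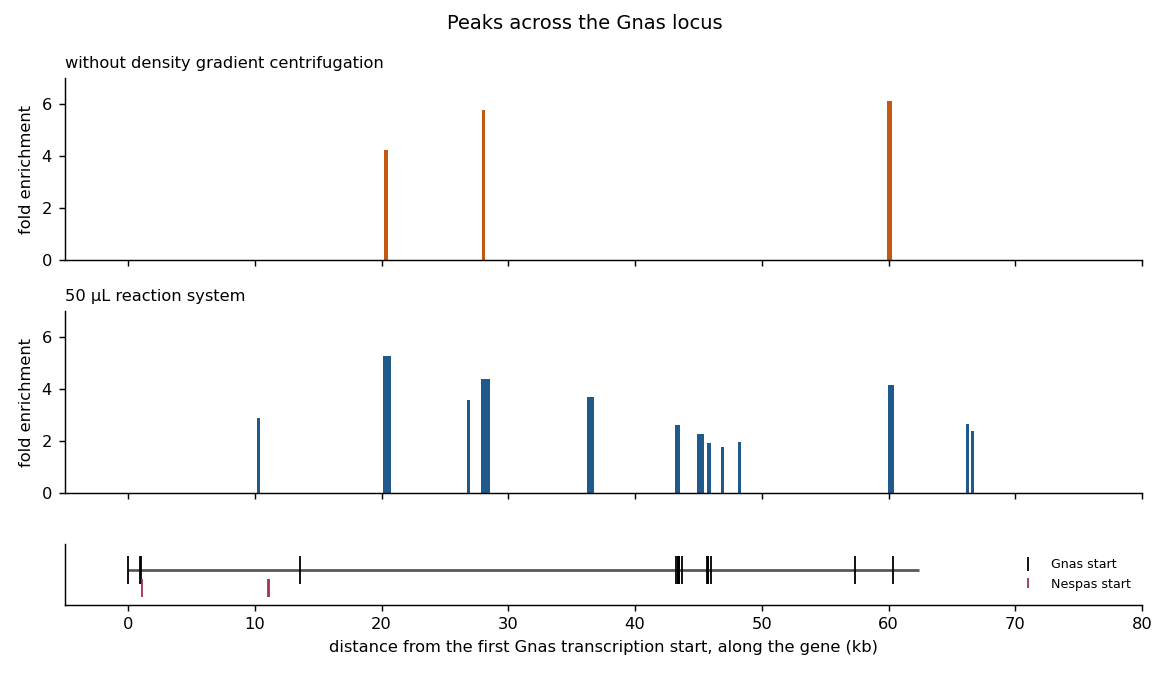
Peaks across Gnas by distance in kb from its first annotated start, with height as fold enrichment at the summit, in the library without density gradient centrifugation (top) and the 50 µL reaction system (middle); the bottom track marks annotated starts. The 3 peaks without gradient, the rightmost with a fold enrichment of 6.14, recur in the 50 µL list, and only the 50 µL list has low peaks of 1.77 to 2.61 at the exon 1A and main starts.

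Of the zinc finger factors, Peg3 had a promoter peak in the 50 µL library only, at chr7:6729571-6729795 with a fold enrichment of 4.77 and a -log10 q of 19.04. Its summit lay 722 bp inside the gene, in the first intron, where YY1 is known to bind. The same peak counted for Usp29, a ubiquitin protease gene that starts on the other strand. Plagl1 had 2 intronic peaks in each list and none at a start, and Zim1 had no peak within 10 kb. The longest gap in the Zim1 to Usp29 locus was 269.7 kb without gradient and 189.5 kb in the 50 µL library.

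Several members are retrogenes that sit in an intron of a host gene. At Commd1 and H13 the 5' end of the host had a peak in both lists. Commd1, a gene of copper handling, had one of 6.71 at chr11:22981810-22982727 without gradient and one of 5.54 at chr11:22982010-22983094 in the 50 µL library (-log10 q of 23.8 and 69.2). An internal Commd1 start also had a peak, with a fold enrichment of 6.41 at chr11:22957001-22957271 without gradient and of 3.38 at chr11:22957044-22957320 in the 50 µL library. H13, which encodes signal peptide peptidase, had one of 6.29 at chr2:152669273-152669860 without gradient and one of 4.03 at chr2:152669240-152669875 in the 50 µL library (-log10 q of 17.6 and 31.7). The retrogene inside Commd1, Zrsr1 (a splicing factor gene), had no promoter peak without gradient and 3 in the 50 µL library, at chr11:22971729-22972231 (2.87), chr11:22972740-22973276 (3.52) and chr11:22973445-22973773 (2.45), which also reach an internal Commd1 start. The retrogene inside H13, Mcts2, had none in either list. Nap1l5 and Nnat, which also lie in introns of other genes, had none either. Trappc9, which encodes a TRAPP complex subunit and hosts Peg13, had none at its own starts, while its body held 7 peaks without gradient and 23 in the 50 µL library. Zrsr1 and Mcts2 are copies of X-linked genes, and how reads that fit both places were treated is not stated. Peg10, derived from a retrotransposon, and Sgce, which encodes a sarcoglycan, start back to back and shared 1 peak in the 50 µL library, at chr6:4747169-4747438 (fold enrichment 5.09, -log10 q 30.9). Without gradient the nearest peak, chr6:4749302-4749623 (fold enrichment 7.44), lay in the body of Peg10, and it recurred in the 50 µL library with a fold enrichment of 7.35.

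In the Snrpn to Ube3a region, studied in Prader-Willi and Angelman syndromes, Ube3a was the exception. This ubiquitin ligase gene, imprinted in neurons, had at its start a peak of 5.57 at chr7:59228225-59228947 without gradient and one of 4.38 at chr7:59227893-59229147 in the 50 µL library (-log10 q of 18.9 and 50.8). A further start inside the gene had a 50 µL peak of 2.97. Its body held 1 peak without gradient and 15 in the 50 µL library, or 1.21 and 18.1 per 100 kb, where the median over the 10159 protein-coding genes of at least 20 kb was 1.48 and 6.50. Snrpn, a spliceosome gene whose start is the control region, had no peak nearer than 753.5 kb without gradient and 588.1 kb in the 50 µL library. For the MAGE family genes Ndn and Magel2 the nearest peaks were 1505 and 1474 kb away without gradient, against 1322 and 1291 kb in the 50 µL library. This was the emptiest of the multi-gene loci in the 50 µL library, with 17 peaks in 3153 kb (0.54 per 100 kb, against 3.27 over the whole genome), of which 15 lay in Ube3a.

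Of the enzymes, channels and transporters, Impact, whose product restrains the kinase GCN2, had 2 promoter peaks without gradient, at chr18:12972111-12972323 (3.51) and chr18:12974219-12974616 (6.11), and 3 in the 50 µL library, at chr18:12972134-12972450 (3.10), chr18:12972740-12973047 (2.83) and chr18:12973279-12974754 (3.99). Mest, a hydrolase family gene, had 2 in the 50 µL library, at chr6:30737881-30738204 (3.40) and chr6:30740977-30741207 (3.46), and none within 10 kb without gradient. Ddc, which encodes aromatic amino acid decarboxylase, had 1 promoter peak in the 50 µL library, at chr11:11836869-11837258 (2.87). It reached only an internal start, 61864 bp from the start of the gene. Kcnq1 and Kcnk9 (potassium channels) and Slc38a4 (an amino acid transporter) had no promoter peak. The body of Kcnq1, which contains Kcnq1ot1, held 1 peak without gradient, the one at the Kcnq1ot1 start, and 8 in the 50 µL library. Kcnk9 was the only member with a peak within 10 kb without gradient and none in the 50 µL library, a peak in its upstream flank with a fold enrichment of 5.85. The 8 genes with no peak within 10 kb in either list were Magel2, Mirg, Ndn, Nnat, Phlda2, Slc38a4, Snrpn and Zim1.

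**Figure D4:**
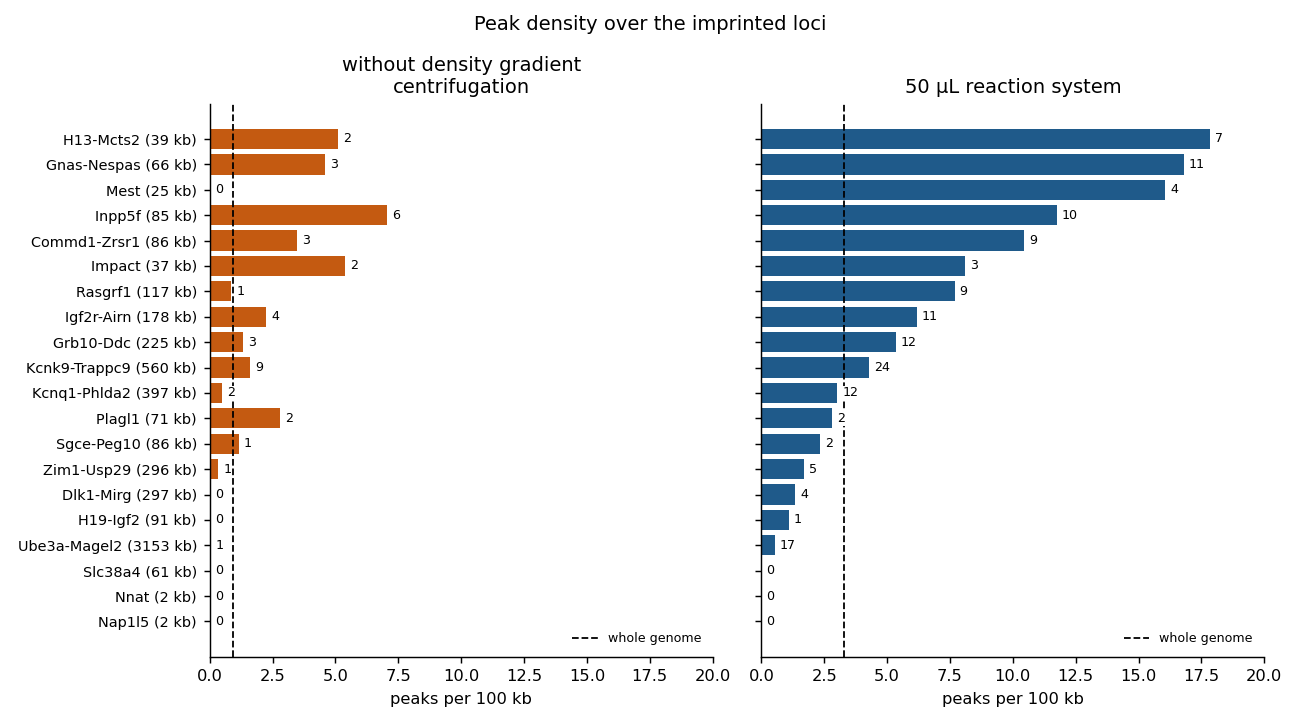
Peaks per 100 kb from the first to the last member of each of 20 loci, in the library without density gradient centrifugation (left) and the 50 µL reaction system (right), with peak counts at the bars and the whole-genome density as a dashed line (0.93 left, 3.27 right). H13-Mcts2 and Gnas-Nespas have 17.9 and 16.8 peaks per 100 kb in the right panel, and Ube3a-Magel2 has 0.54. The mean over protein-coding gene bodies, not drawn, was higher than the whole-genome density, at 1.66 (left) and 5.66 (right).

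Control regions were examined as 20 windows. Of these, 17 reach 1 kb on each side of the most CpG-rich start of a gene whose control region is methylated on the maternal copy, and at Nespas, Grb10 and Inpp5f that start is not the imprinted one. The other 3, methylated on the paternal copy, lie upstream of H19 (2 to 4 kb), Meg3 (10 to 16 kb) and Rasgrf1 (25 to 35 kb). A peak was present in 4 of 20 windows without gradient (exact interval 5.73 to 43.7%). In the 50 µL library 9 of 20 held one (23.1 to 68.5%). For comparison, the most CpG-rich start of 40.9% of all protein-coding genes without gradient had a peak within 1 kb. In the 50 µL library 53.3% did, and both shares lie inside those intervals. The match is loose, as the Kcnq1ot1, Airn, Nespas and Peg13 windows are at noncoding RNA starts and the 3 upstream windows at none. Of all long noncoding RNA genes, 14.7% without gradient and 26.3% in the 50 µL library had a promoter peak. Of the 17 windows at starts, 4 held a peak without gradient and 8 in the 50 µL library. With the imprinted starts of Nespas, Grb10 and Inpp5f these counts were again 4 without gradient and 8 in the 50 µL library, but Nespas took the place of Inpp5f in the 50 µL library. Paternally methylated windows held peaks in 0 of 3 without gradient and in 1 of 3 in the 50 µL library.

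The windows of Kcnq1ot1, Impact, Peg13 and Inpp5f held a peak in both lists, the Inpp5f window being at its main start, not the imprinted one. At Peg13 the peak without gradient only reached the edge of the window, its summit lying 1103 bp from the start. When summits had to lie inside, 3 windows without gradient and 9 in the 50 µL library held a peak. The windows of Peg3, Mest, Peg10, Zrsr1 and H19 held one only in the 50 µL library. The H19 peak, at chr7:142580362-142580949, had a fold enrichment of 3.49 and a -log10 q of 9.50, with its summit at -2644 bp from the start, in the region where CTCF is known to insulate Igf2 from its enhancers on the maternal copy. Without gradient the nearest peak was 46.5 kb from that window. No peak was found in either list in the windows of Airn, Snrpn, Plagl1, Nnat, Nap1l5, Slc38a4, Mcts2, Meg3 and Rasgrf1, nor in those of Grb10 and Nespas. The Grb10 window held the most CpG of the 20 windows (222) and no peak, whereas the Kcnq1ot1 window held 78 CpG and a peak in both lists.

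The imprinted starts of Nespas, Grb10 and Inpp5f were examined as a choice made after the data were seen. There Nespas had the peak of 2.89 described above in the 50 µL library, and the nearest peak to the Grb10 window was 50.0 kb away in each library. The internal Inpp5f start, from which a short paternal transcript begins, had a peak without gradient, at chr7:128688392-128688624 with a fold enrichment of 4.98, a -log10 q of 8.39 and 23 CpG. The 50 µL list had no peak in that window, the nearest being 0.556 kb outside it. The internal Inpp5f peak was 1 of 3, among the 43 peaks without gradient within 10 kb of a member, that overlapped no 50 µL peak. Over that whole list, 95.3% of peaks overlapped one.

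**Figure D5:**
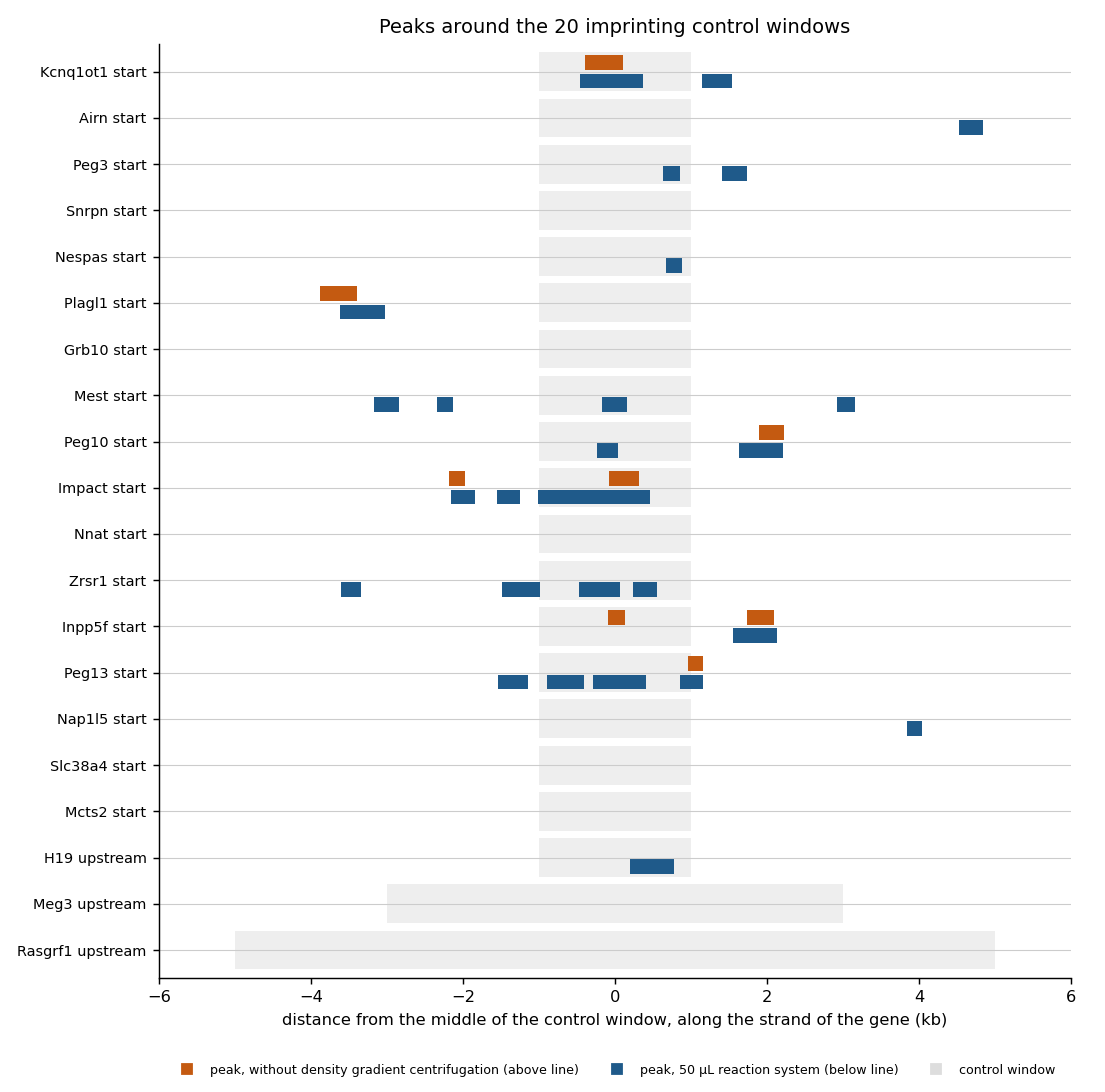
Peaks within 6 kb of the middle of each of 20 control windows (grey), by distance in kb along the strand of the gene, for the library without density gradient centrifugation (orange, above each line) and the 50 µL reaction system (blue, below), with the imprinted start used for Nespas, Grb10 and Inpp5f. Kcnq1ot1, Impact and Peg13 have a peak in both lists, H19 only in the 50 µL list, and the Inpp5f internal start only without gradient. The Peg13 peak without gradient only reaches the edge of its window.

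In the 200 bp around summits, TGCCGC was found in 1 of 12 member promoter peaks without gradient (8.33%), where 7.41% of all peaks and 12.7% of promoter peaks held it. In the 50 µL library it was found in 5 of 31 (16.1%), against 3.84% of all peaks and 9.41% of promoter peaks. GCCATNTT was in 0 of 12 member promoter peaks without gradient, against 4.20% of all peaks and 5.32% of promoter peaks, and in 1 of 31 in the 50 µL library, against 3.17% of all peaks and 4.06% of promoter peaks. The CTCF consensus was in 0 of 12 without gradient, against 8.35% of all peaks and 3.26% of promoter peaks, and in 2 of 31 in the 50 µL library, against 2.72% of all peaks and 1.63% of promoter peaks. GGNGGCAG, searched after the data were seen, was in 0 of 12 without gradient, against 10.6% of all peaks and 9.37% of promoter peaks, and in 2 of 31 in the 50 µL library, against 7.84% of all peaks and 9.35% of promoter peaks. The median number of CpG in these windows was 10.5 in member promoter peaks without gradient, against 12 in all promoter peaks of that list. In the 50 µL library it was 8 in member promoter peaks, against 7 in all promoter peaks.

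Genes whose products set, keep or read imprints were counted beside the members. Of 20 such genes, 13 without gradient (65.0%) and 17 in the 50 µL library (85.0%) had a promoter peak, beside 43.7% and 56.6% of all protein-coding genes. Dnmt1, the maintenance DNA methyltransferase, had a fold enrichment of 11.3 without gradient and 5.44 in the 50 µL library. Setdb1, a histone H3 lysine methyltransferase, had 6.52 without gradient and 8.05 in the 50 µL library. Zfp445, a zinc finger protein that binds imprinted regions, had 7.07 without gradient and 5.73 in the 50 µL library, and Eed, a Polycomb subunit, had 6.74 without gradient and 4.68 in the 50 µL library. Ctcf had a promoter peak in the 50 µL library only (fold enrichment 3.01). Zfp57, Dnmt3l and Dppa3, genes of the germ line and early embryo, had none in either list. Of 30 neighbours in the same loci, 11 without gradient (36.7%, 19.9 to 56.1%) and 15 in the 50 µL library (50.0%, 31.3 to 68.7%) had a promoter peak. The same 43.7% and 56.6% of all protein-coding genes lie inside these intervals. Copg2, beside Mest, had one of 7.60 without gradient and 5.71 in the 50 µL library, and Osbpl5, beside the Kcnq1 domain, one of 7.11 without gradient and 5.12 in the 50 µL library. Ins2, Th, Ascl2, Rtl1, Dio3, Mkrn3 and Peg12 were among the 15 neighbours with none in either list.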

How the data were processed

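Accessible chromatin of 2 scFFPE-ATAC libraries of mouse FFPE spleen was analysed, 1 per condition. Per the study's methods, reads were aligned by the authors with BWA mem and sorted with SAMtools; they then removed duplicates, called peaks per library (not per cell) with MACS2 with no model and no shift, and removed blacklisted regions. With a shift of 0 the signal is not centred on the insertion, and how far summits lie from it was not measured. The deposited lists on mm10 give, for each peak, the fold enrichment (a ratio over local background), the -log10 p and -log10 q of the call, a display score and the summit offset. The -log10 p was used only to order peaks, and the deposited score was not used. The lowest -log10 q was 2.08 without gradient and 2.11 in the 50 µL list. The protocol in the labels describes a larger reaction volume for both libraries, so the 50 µL is taken from the sample title.

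Peaks were compared with GENCODE vM21 on GRCm38 in Python 3.11.15 with numpy 2.4.6, pandas 2.3.3 and scipy 1.17.1; an overlap of 1 bp counted. In the 50 µL list, 169 peaks off the reference chromosomes were left out of gene counts. Since peaks have no strand, one in overlapping genes counted for each. A control window was placed at the annotated start with the most CpG. All 47 RefSeq promoter sequences, of 30 members, matched the genome used. Members and lists (imprint keepers, neighbours, tissue markers) were chosen with earlier results of these data known. The rule for names was to account for all members and to give values for those with a promoter peak and for control regions; the fold enrichment of each promoter peak is given, and its -log10 q and summit distance for some. Other names were chosen after their values were seen. Counting was tested on simulated data. No significance test was made. Alternatives were stricter calls, summits in place of peaks, other windows and lists of equal length.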

Additional observations from a re-analysis of the deposited data

How the results depend on the processing

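Of 43 alternative values, 42 stayed within 1.5 times the main count. With a fold enrichment of at least 4, control windows with a peak in the 50 µL library numbered 4 of 20 in place of 9, while the count without gradient stayed at 4. The same setting gave 13 genes with a promoter peak in the 50 µL library in place of 19, as did the list reduced to equal length. With 3 kb on each side of a start, 12 genes without gradient and 22 in the 50 µL library had a promoter peak. At the 5' end of the gene record alone the counts were 7 and 14. Except for the list of equal length, the shares over all genes were not counted at these settings. Whether the members moved with the background is therefore not known. No paired analysis was possible because each condition had 1 library. With 1 library per condition and depth unknown from these files, a gene with no peak is one where no peak was called, not one shown to be closed, and condition and depth cannot be told apart.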
